A study of Mus musculus with 12 samples.

Results

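The 10 genes described here encode folding and quality-control factors of the endoplasmic reticulum (ER) that belong to the unfolded protein response: Hspa5, Hsp90b1, Sdf2l1, Pdia4, Pdia6, Creld2, Dnajb9, Dnajc3, Herpud1 and Xbp1. They were chosen by name, as genes under the transcription factors XBP1 and ATF6, and every one of them had a probe set annotated to that gene symbol alone, so 10 of the 19938 genes measured are followed. Liver RNA was hybridised to 12 arrays, 3 in each of 4 groups of male C57BL/6N mice aged 110 days. KI_MR and KI_CD mice were homozygous for the Lmna G609G knock-in allele, a whole-body mouse model of Hutchinson-Gilford progeria, and WT_MR and WT_CD mice were wild type; both came from crosses of heterozygous parents. From 7 weeks of age the MR groups ate a methionine-restricted diet and the CD groups a control diet, and all mice had fasted for 6 hours when the liver was taken. Pellets were given both whole and crushed in every group. The labels do not say whether each array stands for a separate animal, so the p-values measure the spread between these samples.

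The unfolded protein response adjusts the folding capacity of the ER to its load of new protein, which in hepatocytes is large because they secrete most plasma proteins. Its 3 sensors are the kinase and nuclease IRE1, encoded by Ern1, the kinase PERK, encoded by Eif2ak3, and the membrane-bound factor ATF6. IRE1 splices the Xbp1 message into the form that codes for the active factor, and ATF6 is cut in the Golgi to release its active part. Both factors act on chaperone genes through an ER stress response element, ERSE, while PERK acts through translation and the factor ATF4.

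The promoter sequences of the 10 genes are shown because ERSE is an element through which ATF6 and XBP1 act. In the RefSeq promoter windows (GRCm38.p6, 250 bases before to 50 after the start site), an exact ERSE, which is CCAAT, then 9 bases of any kind, then CCACG, was searched on both strands and found in 5 of the 10 windows. Across all 32851 windows of that table it was in 39, or 0.119%. The 10 genes were chosen as genes under the factors that act through ERSE. A higher share among them thus follows from the choice and is given as a description. The related ERSE-II (ATTGG, 1 base of any kind, CCACG) was in 1 of the 10 windows, that of Herpud1, and in 0.0365% of all windows. The element UPRE, TGACGTGG, was in 0 of the 10 and in 0.676% of all windows. The ATF4 element TGATGCAA was in 1 of the 10, again Herpud1, and in 0.895% of all windows. The stretches below read 5′ to 3′ on the gene's strand, all lie before the start site, and have the matched letters in capitals. In Herpud1 the ATF4 element is on the other strand, so its capitals read TTGCATCA.
Pdia6, chr12:17266481-17266519, plus strand: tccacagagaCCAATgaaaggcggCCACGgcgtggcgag
Hspa5, chr2:34772015-34772053, plus strand: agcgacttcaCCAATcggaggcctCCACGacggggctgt
Dnajc3, chr14:118937817-118937855, plus strand: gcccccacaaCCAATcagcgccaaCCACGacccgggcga
Creld2, chr15:88819510-88819548, plus strand, match on the other strand: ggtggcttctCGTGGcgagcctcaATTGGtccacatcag
Hsp90b1, chr10:86705523-86705666, minus strand, matches on both strands: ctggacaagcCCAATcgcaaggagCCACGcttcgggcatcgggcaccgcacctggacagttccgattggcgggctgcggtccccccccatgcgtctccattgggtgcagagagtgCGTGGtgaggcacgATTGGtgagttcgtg
Herpud1, chr8:94386307-94386397, plus strand, ATF4 element then ERSE-II: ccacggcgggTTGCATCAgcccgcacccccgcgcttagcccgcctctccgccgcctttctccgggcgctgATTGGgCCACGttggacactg

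The ERSE matches began at -65 in Hspa5, -98 in Pdia6, -105 in Dnajc3, -126 in Creld2 and -212 and -107 in Hsp90b1, counted from the start site. No exact match to any of the 4 elements lay in the windows of Sdf2l1, Pdia4, Dnajb9 and Xbp1, which says only that these letters are not in these windows. Among the other ER chaperones and folding enzymes listed for comparison, 3 of 25 genes with a window held an ERSE and 1 an ERSE-II. Of the ER-associated degradation genes 2 of 17 held an ERSE. Of the genes of the PERK and ATF4 arm 0 of 23 did, while 6 of these held the ATF4 element. These lists were chosen by pathway too, so their shares are likewise a description.

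**Figure D1:**
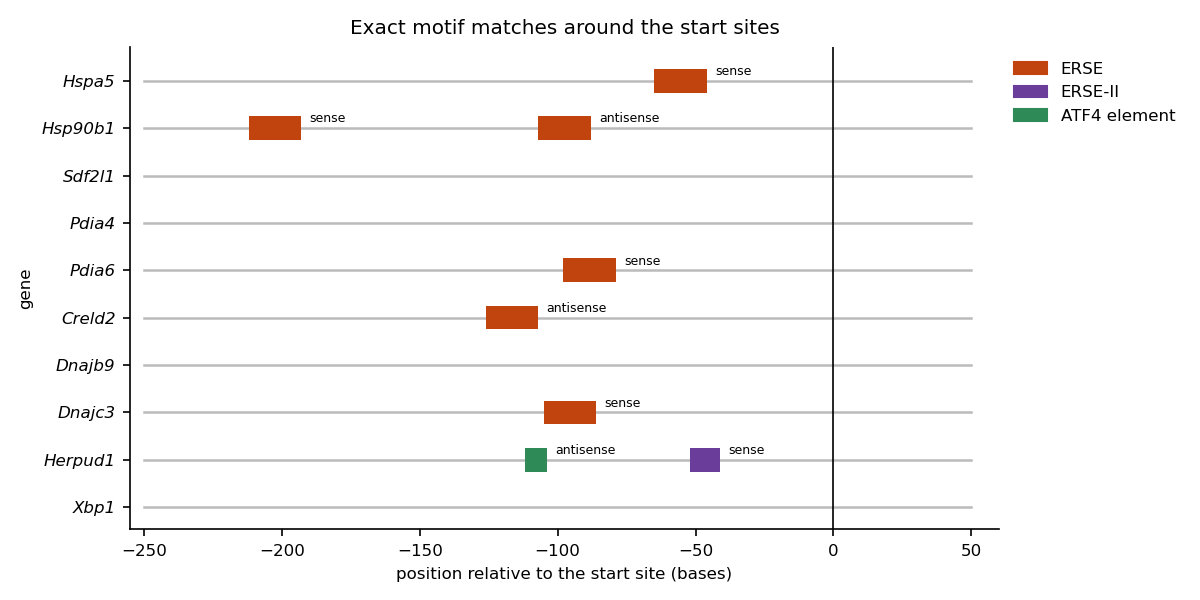
Positions of exact matches to ERSE, ERSE-II and the ATF4 element (coloured bars) in the promoter window of each of the 10 genes; the x axis is the distance from the start site in bases, and sense or antisense gives the strand of the match relative to the gene. Matches lie between -212 and -42, and 4 genes have none.

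Levels are given as the deposited array intensities, in linear units, and changes as log2 differences ± SE from a limma fit over all 12 arrays and 19938 genes. Adjusted p-values come from that fit, with a threshold of 0.05, and 95% intervals are given in brackets. Array medians lay between 82 and 90 units and upper quartiles between 277 and 298 units. The mean correlation of an array with the others of its group, across genes, was 0.9855 for KI_CD replicate 1 and 0.9887 to 0.9942 for the other 11 arrays. Lmna itself had 259, 216 and 220 units in KI_MR, 330, 230 and 222 in KI_CD, 198, 188 and 175 in WT_MR and 168, 162 and 168 in WT_CD. The allele is a point mutation that changes splicing, so this gene-level probe set does not check the genotype. The 8 hepatocyte markers checked, such as Alb and Apoa1, were all above the lower quartile of gene levels on every array.

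Methionine restriction went with lower Pdia6, the disulfide isomerase also called P5, in both genotypes. Pdia6 had 861, 1057 and 852 units in KI_MR, 1898, 1479 and 1339 in KI_CD, 1164, 946 and 1244 in WT_MR and 1617, 1398 and 1591 in WT_CD. All 6 MR arrays lay below all 6 CD arrays. The share of all genes that separate the diets in this way was not counted. Averaged over genotypes, Pdia6 fell with the restricted diet by 0.61 ± 0.10 on the log2 scale [-0.84 to -0.39], a level 1.53-fold lower (adjusted p = 0.0170, n = 6 arrays per diet). It was the only gene of the 10 that passed, while 4 had an unadjusted p under 0.05, against 1.21% and 10.9% of all genes under the same rules. The call ended without KI_MR replicate 1 (adjusted p = 0.0548), KI_MR replicate 3 (0.0536) or WT_CD replicate 1 (0.0566), with the log2 change between -0.67 and -0.54 over all arrays left out in turn.

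Within a genotype, the change of Pdia6 was -0.76 ± 0.14 in KI_MR against KI_CD [-1.08 to -0.44] and -0.46 ± 0.14 in WT_MR against WT_CD [-0.78 to -0.15]. Neither passed over all genes (adjusted p = 0.0867 in KI and 0.302 in WT). The difference between these responses was -0.29 ± 0.20 [-0.74 to 0.16] and did not pass (adjusted p = 1.0). In a bulk sample fewer cells of a type and less RNA per cell cannot be told apart.

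**Figure D2:**
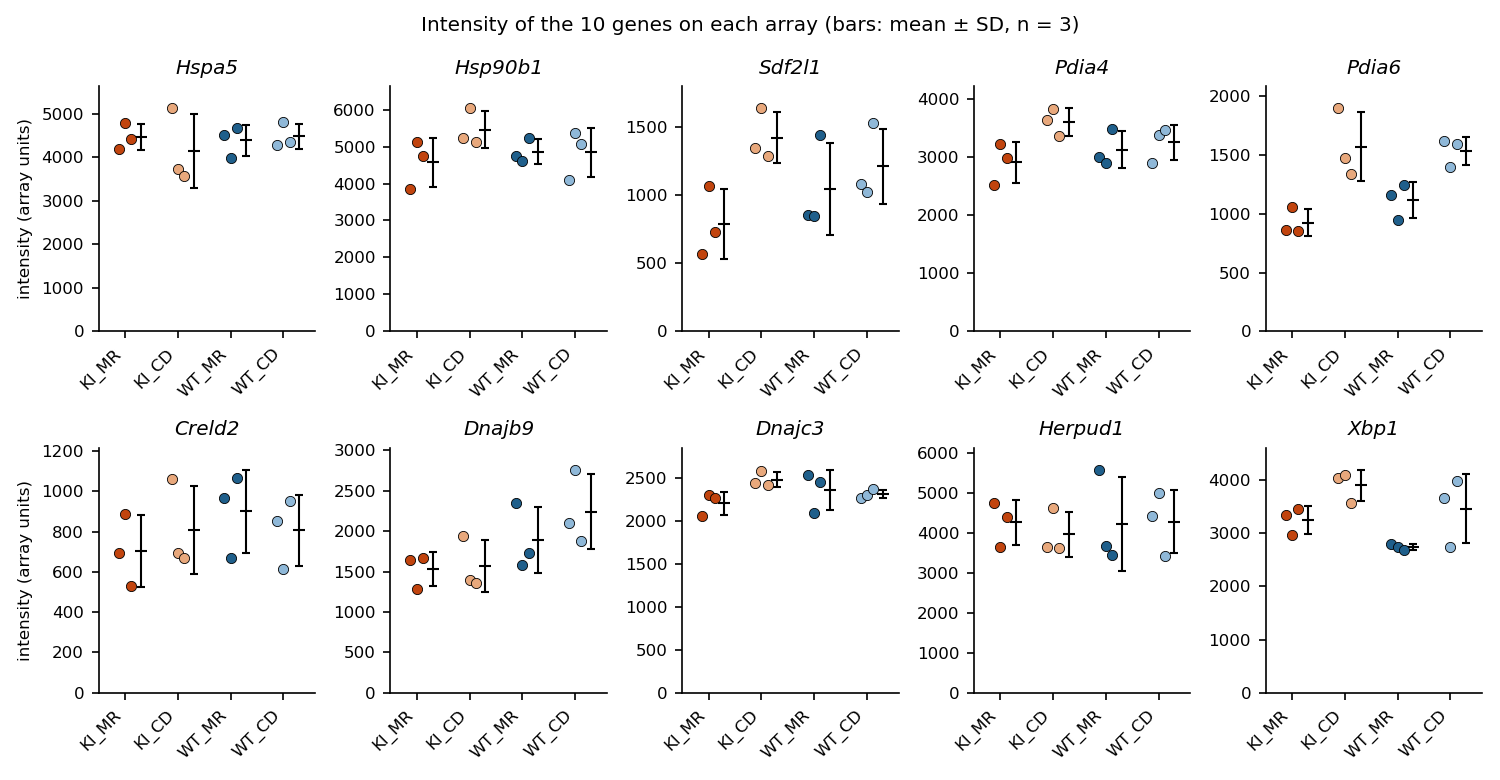
Array intensity (y axis, linear units from 0) of each of the 10 genes in KI_MR, KI_CD, WT_MR and WT_CD; points are single arrays and bars the mean ± SD of 3 arrays. Pdia6 is lower on all 6 MR arrays (852 to 1244 units) than on all 6 CD arrays (1339 to 1898 units), and most other panels show overlapping groups.

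Among the chaperones proper, Sdf2l1 had the widest range. It encodes an ER-resident partner of the Hsp70 system that helps keep unfolded proteins soluble. Sdf2l1 had 565, 1067 and 730 units in KI_MR, 1341, 1635 and 1283 in KI_CD, 852, 844 and 1436 in WT_MR and 1082, 1020 and 1524 in WT_CD. The KI groups did not overlap, and the WT groups did, with replicate 3 the highest of each WT group. The change in KI_MR against KI_CD was -0.89 ± 0.26 [-1.46 to -0.32], or 1.86-fold lower, and did not pass (adjusted p = 0.292). In WT_MR against WT_CD it was -0.23 ± 0.26 [-0.80 to 0.33] (adjusted p = 0.960). The test of the difference between the genotypes gave -0.66 ± 0.37 [-1.46 to 0.15] (adjusted p = 1.0), and the mean over genotypes was -0.56 ± 0.18 (adjusted p = 0.215).

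Hspa5, which encodes BiP, the main Hsp70 of the ER and the protein that holds the 3 sensors inactive, stayed within a narrow range. It had 4189, 4784 and 4430 units in KI_MR, 5131, 3741 and 3563 in KI_CD, 4514, 3985 and 4678 in WT_MR and 4275, 4818 and 4364 in WT_CD. The highest and the lowest of the 12 values both lay in KI_CD, with replicate 1 at the top, and all groups overlapped. The mean change with the restricted diet was 0.05 ± 0.09 [-0.15 to 0.24], and that with the knock-in -0.05 ± 0.09 [-0.25 to 0.15]. Neither interval reached the size of the change estimated for Pdia6.

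Hsp90b1 encodes GRP94, the Hsp90 of the ER. It had 3848, 5135 and 4736 units in KI_MR, 5237, 6037 and 5112 in KI_CD, 4734, 4608 and 5237 in WT_MR and 4092, 5370 and 5071 in WT_CD. Only the lowest KI_CD value, 5112, reached into the KI_MR range, and the WT groups covered much the same range. Hsp90b1 was at -0.26 ± 0.13 [-0.54 to 0.02] in KI_MR against KI_CD and at 0.01 ± 0.13 [-0.27 to 0.29] in WT_MR against WT_CD, and neither passed (adjusted p = 0.686 and 1.0).

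Pdia4, the disulfide isomerase ERp72, had its highest mean in KI_CD and its lowest in KI_MR, as Hsp90b1 did. It had 2513, 3218 and 2982 units in KI_MR, 3627, 3820 and 3352 in KI_CD, 2993, 2891 and 3484 in WT_MR and 2895, 3382 and 3464 in WT_CD. KI_MR lay wholly below KI_CD, and the WT groups overlapped. The change was -0.32 ± 0.11 [-0.56 to -0.07] in KI_MR against KI_CD (adjusted p = 0.455) and -0.06 ± 0.11 [-0.30 to 0.19] in WT_MR against WT_CD (adjusted p = 0.998). A second, dim probe set of Pdia4, with 129 to 255 units, gave 0.35 ± 0.19 in KI_MR against KI_CD, the opposite sign, and did not pass either (adjusted p = 0.740 among all probe sets).

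Creld2, an ER and secreted protein that is induced by ER stress and has isomerase activity, was variable within every group. It had 694, 887 and 528 units in KI_MR, 1059, 692 and 671 in KI_CD, 969, 670 and 1064 in WT_MR and 852, 613 and 954 in WT_CD. All 4 groups overlapped. Its changes were -0.20 ± 0.25 [-0.75 to 0.36] in KI_MR against KI_CD and 0.16 ± 0.25 [-0.40 to 0.71] in WT_MR against WT_CD, and both intervals include 0.

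The co-chaperones of the Hsp40 family differed from each other. Dnajc3, or p58IPK, which delivers unfolded proteins to BiP, had 2055, 2298 and 2265 units in KI_MR, 2440, 2586 and 2421 in KI_CD, 2539, 2095 and 2450 in WT_MR and 2270, 2301 and 2368 in WT_CD. KI_CD lay above both KI_MR and WT_CD without overlap, and WT_MR spanned nearly the whole range. The differences were small, at -0.17 ± 0.08 [-0.35 to 0.01] in KI_MR against KI_CD (adjusted p = 0.666) and 0.10 ± 0.08 [-0.08 to 0.28] in KI_CD against WT_CD (adjusted p = 0.626). The table holds 2 probe sets of Dnajc3 with identical values on every array, which were counted as a single measurement.

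Dnajb9, or ERdj4, which brings BiP to IRE1 and so restrains that sensor, had the largest difference between genotypes of the 10 when averaged over diets. It had 1637, 1289 and 1670 units in KI_MR, 1935, 1393 and 1364 in KI_CD, 2353, 1579 and 1729 in WT_MR and 2096, 2759 and 1873 in WT_CD. The KI mean was the lower one on each diet, with overlap on both, since KI_CD replicate 1 at 1935 stood above the lowest WT_CD array. Dnajb9 was at -0.52 ± 0.20 [-0.95 to -0.09] in KI_CD against WT_CD (adjusted p = 0.368) and at -0.29 ± 0.20 [-0.72 to 0.14] in KI_MR against WT_MR (adjusted p = 0.506). Averaged over diets the difference was -0.40 ± 0.14 [-0.71 to -0.10] and did not pass (adjusted p = 0.133).

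Herpud1, a membrane protein of the HRD1 complex that exports misfolded proteins for degradation, showed no difference between groups larger than the spread within them. It had 4744, 3654 and 4414 units in KI_MR, 3661, 4615 and 3618 in KI_CD, 5584, 3665 and 3455 in WT_MR and 4435, 4991 and 3423 in WT_CD. WT_MR replicate 1 stood above all other arrays, and every group spanned at least the values from 3665 to 4414. The mean changes were 0.04 ± 0.14 [-0.27 to 0.34] with the restricted diet and -0.03 ± 0.14 [-0.34 to 0.27] with the knock-in.

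Xbp1, the transcription factor of the set, had a lower mean on the restricted diet in both genotypes, and the difference did not pass the test. It had 3354, 2961 and 3457 units in KI_MR, 4036, 4106 and 3566 in KI_CD, 2808, 2746 and 2696 in WT_MR and 3671, 2737 and 3983 in WT_CD. KI_MR lay below KI_CD and above WT_MR without overlap, and WT_CD replicate 2 fell among the WT_MR arrays. The change was -0.26 ± 0.12 [-0.53 to 0.01] in KI_MR against KI_CD, -0.31 ± 0.12 [-0.59 to -0.04] in WT_MR against WT_CD and -0.29 ± 0.09 [-0.48 to -0.09] averaged over genotypes (adjusted p = 0.673, 0.496 and 0.181). Without WT_CD replicate 2 the averaged change was -0.37 and passed (adjusted p = 0.0293). Between genotypes Xbp1 was at 0.21 ± 0.09 averaged over diets [0.02 to 0.41], which did not pass (adjusted p = 0.193). The probe set reads the whole gene and cannot tell the spliced message from the unspliced one.

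**Figure D3:**
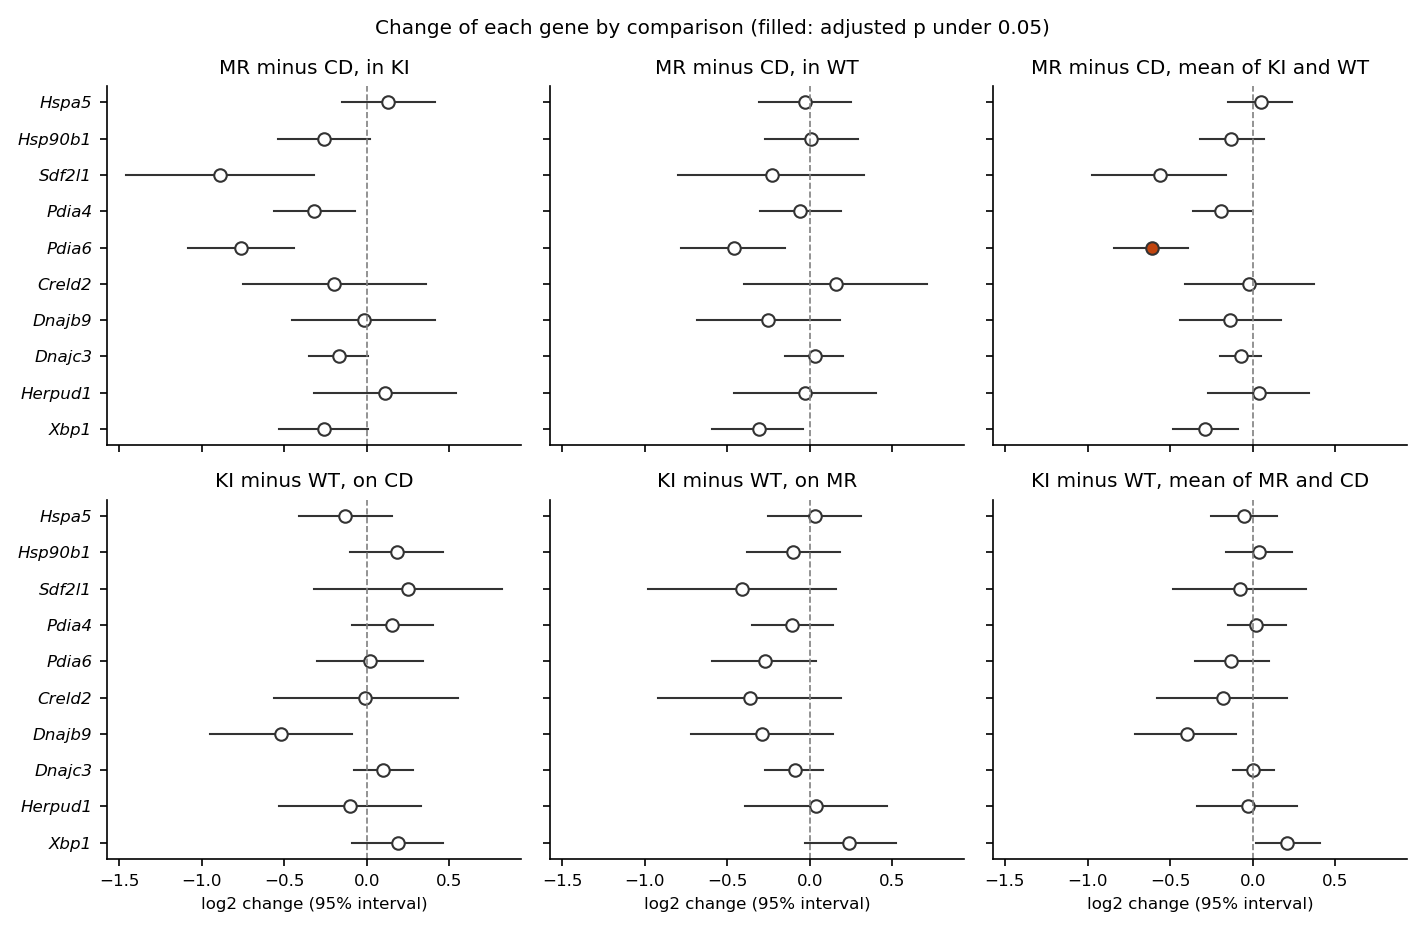
Log2 change (x axis) of each of the 10 genes in 6 comparisons; points are limma estimates, lines their 95% intervals, and a filled point has an adjusted p under 0.05. The filled point is that of Pdia6 for the mean diet effect (-0.61), and the points of Sdf2l1, Pdia6, Pdia4, Dnajb9 and Xbp1 lie left of 0 in all 3 diet panels.

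Most of the 10 genes had a lower mean in KI_MR than in KI_CD. The change was below 0 for 8 and above it for 2, with a median of -0.23 against -0.02 over all genes, of which 56.3% lay below 0. None of the 10 passed, 3 had an unadjusted p under 0.05 and 5 had groups that did not overlap, all lower, against 0.176%, 7.78% and 10.7% of all genes in either direction. The 5 without overlap were Pdia6, Sdf2l1, Pdia4, Xbp1 and Dnajc3. In WT_MR against WT_CD the median was -0.04 against 0.0 over all genes, with 7 below 0. There 0 of 10 passed, 2 had an unadjusted p under 0.05 (Pdia6 and Xbp1) and 1 had no overlap (Pdia6), against 0.326%, 8.19% and 11.5% of all genes. For the interaction of diet and genotype 0 of 10 passed and 0 had an unadjusted p under 0.05, against 0% and 4.13% of all genes. KI_CD is shared by the diet comparison in KI and the genotype comparison on CD, so these comparisons are not independent of each other.

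Between genotypes none of the 10 genes passed. In KI_CD against WT_CD 0 of 10 passed, 1 had an unadjusted p under 0.05 (Dnajb9) and 1 had no overlap (Dnajc3), against 0.0802%, 11.2% and 19.0% of all genes. The median was 0.06, with 6 above 0, against -0.02 over all genes. In KI_MR against WT_MR 0 of 10 passed, 0 had an unadjusted p under 0.05 and 1 had no overlap (Xbp1, higher), against 0.471%, 14.1% and 16.3% of all genes, and the median was -0.10 against -0.04. Averaged over diets 0 of 10 passed and 2 had an unadjusted p under 0.05, Dnajb9 lower and Xbp1 higher, against 2.81% and 22.0% of all genes. The share of the 10 genes under each rule was thus below or near that of all genes in the genotype comparisons.

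The genes did not vary as a single block. Over the 12 arrays Hsp90b1 and Pdia4 had the closest levels (Pearson r = 0.94, Spearman rho = 0.90), followed by Pdia4 and Sdf2l1 (r = 0.91, rho = 0.86) and Pdia6 and Sdf2l1 (r = 0.79, rho = 0.76). With the group means removed the first pair kept r = 0.94 and the second r = 0.85, while Pdia6 and Creld2 came to r = 0.92 against 0.51 before and Hspa5 and Pdia6 to 0.77 against 0.16. Sdf2l1 and Herpud1 ran in opposite directions (r = -0.49, rho = -0.52). Of the 45 pairs 32 had r above 0, with a median of 0.16. These values describe 12 arrays that share groups and scaling, and no test was made of them.

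Against the mean of the other 9 genes, Pdia6 had r = 0.87, Dnajc3 0.75, Pdia4 0.74 and Sdf2l1 0.65, whereas Xbp1 and Hspa5 had 0.23 each, Dnajb9 0.16 and Herpud1 -0.24. The range of a gene over the 12 arrays was 2.89-fold for Sdf2l1, 2.23-fold for Pdia6, 2.14-fold for Dnajb9 and 2.02-fold for Creld2, and from 1.26-fold (Dnajc3) to 1.63-fold (Herpud1) for the other 6. Genes with an ERSE ran from Dnajc3, with the smallest range of the 10, to Pdia6, while Sdf2l1, with the largest, had no exact match. On single arrays, 9 of the 10 genes were above their own mean in KI_CD replicate 1 and in WT_CD replicate 3, and 0 of 10 in WT_MR replicate 2. The mean deviation of the 10 genes ranged from -0.25 (KI_MR replicate 1) to 0.22 (KI_CD replicate 1) on the log2 scale. It was negative on all 3 KI_MR arrays (-0.25, -0.07 and -0.18) and differed in sign within KI_CD (0.22, 0.13 and -0.04) and WT_MR (0.05, -0.21 and 0.07), while WT_CD had 0.05, 0.07 and 0.14.

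**Figure D4:**
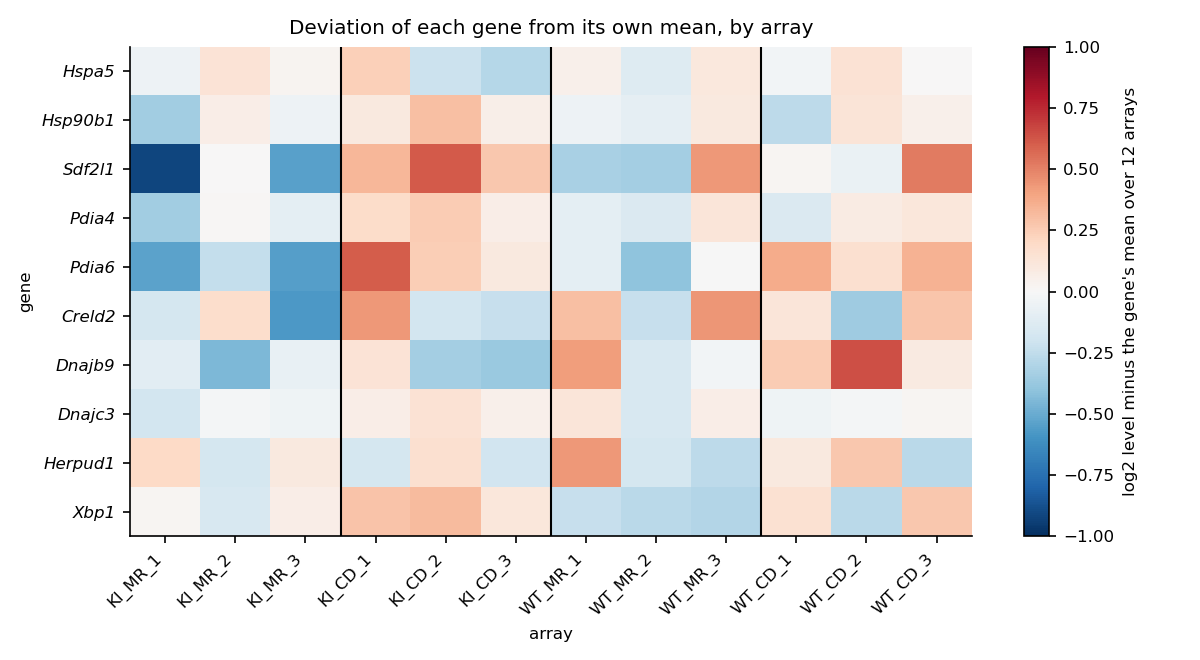
Log2 level of each of the 10 genes (rows) on each of the 12 arrays (columns) minus the gene's own mean, with red above and blue below that mean. All 3 KI_MR columns are blue for Pdia6, the WT_MR columns are blue for Xbp1, and all cells of WT_MR replicate 2 are below 0.

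Outside the 10, the genes whose levels over the 12 arrays were most like their mean deviation were Calr and Golgb1 (r = 0.92 each), Pgap2 (0.88), Lancl1 and Uggt1 (0.87 each) and Bak1 (0.86). With group means removed they were Dap (0.95), Mmp27, Gins3, Golgb1 and Ccl6 (0.91 each) and 4930597O21Rik (0.90). Dap, Gins3 and 4930597O21Rik varied little once group means were removed, with an SD of 0.05 to 0.09 on the log2 scale. Both lists are the top of a ranking of all other genes over only 12 arrays, where high values can also arise by chance. No test was made of them.

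The other genes of the pathway were followed through lists. The 10 genes themselves had a median diet effect of -0.13, with 8 below 0. With the restricted diet, averaged over genotypes, the 29 other ER chaperones and folding enzymes had a median of -0.11, with 23 below 0, against -0.01 over all genes, of which 55.6% lay below 0. None passed, and 12 were lower and 2 higher at an unadjusted p under 0.05, a rule that 10.9% of all genes met in either direction. The smallest p-values were those of the isomerase gene Pdia5 (-0.48 ± 0.11, adjusted p = 0.0561), the sulfhydryl oxidase gene Qsox1 (-0.57 ± 0.14, adjusted p = 0.0983), the cyclophilin gene Ppib (-0.37 ± 0.09, adjusted p = 0.100) and Creld1 (0.19 ± 0.05, adjusted p = 0.15). The translocation and signal peptide list had 17 of 19 genes below 0 (median -0.11) and 0 passed, with Tram1 at -0.24 ± 0.06 (adjusted p = 0.128). Of the 27 COPII and Golgi transport genes 23 were below 0 (median -0.09), and Lman1, a cargo receptor for secreted glycoproteins, fell by 0.28 on the log2 scale (SE 0.06, adjusted p = 0.0435). The Lman1 call ended without any 1 of 10 of the 12 arrays, with KI_CD replicate 2 and KI_MR replicate 2 the exceptions (adjusted p up to 0.119 over all alternatives). It also ended with quantile normalization, median centring, the trend and robust prior and the replicate block, so that 4 of 18 alternatives kept it. The 20 ER-associated degradation genes had a median of -0.04 and 0 passed, with Os9 at -0.20 ± 0.06 and Edem1 at -0.23 ± 0.08 (adjusted p = 0.172 and 0.278).

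The sensors themselves did not pass in the diet comparison. Of 15 sensor and regulator genes 9 were above 0, with a median of 0.02, and the smallest p-values were those of Bak1 (-0.40 ± 0.09, adjusted p = 0.0632), the NF-Y subunit gene Nfyb (0.25 ± 0.08, adjusted p = 0.225), the liver ER factor gene Creb3l3 (-0.28 ± 0.11, adjusted p = 0.355) and Atf6 (0.21 ± 0.11, adjusted p = 0.559). The PERK and ATF4 arm had mostly positive changes. Of its 24 genes 9 passed, all higher with the restricted diet. The median was 0.35, with 18 above 0 and 6 below. Ddit3 and Ppp1r15a were at 0.0, Atf3 and Cebpb at -0.09, Ddit4 at -0.12, Stc2 at -0.05 and Shmt2 at -0.01. Trib3 and Atf4 were at 0.16, Eif4ebp1 at 0.21, Chac1 at 0.28, Cebpg at 0.33, Sesn2 at 0.37, Nupr1 at 0.63 and Fgf21 at 0.69. None of these passed. The PERK gene Eif2ak3, of the sensor list, was at 0.09. Whether the rises went through PERK was not tested. The cystine transporter gene Slc7a11 (2.63 ± 0.26, adjusted p = 9.59e-04), the asparagine synthetase gene Asns (2.48 ± 0.34, adjusted p = 0.00657) and the serine synthesis gene Psat1 (2.29 ± 0.32, adjusted p = 0.00669) had the largest rises. Aldh1l2, Vldlr, Slc3a2, Mthfd2, Phgdh and Atf5 also passed. All of these but Atf5 passed under all 18 alternatives, and the Atf5 call ended without any 1 of 8 arrays (adjusted p up to 0.0774). Over all genes 1.21% passed in this comparison in either direction. Cytosolic and mitochondrial heat shock chaperones had a median of 0.17 with 16 of 18 above 0, and 0 passed.

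**Figure D5:**
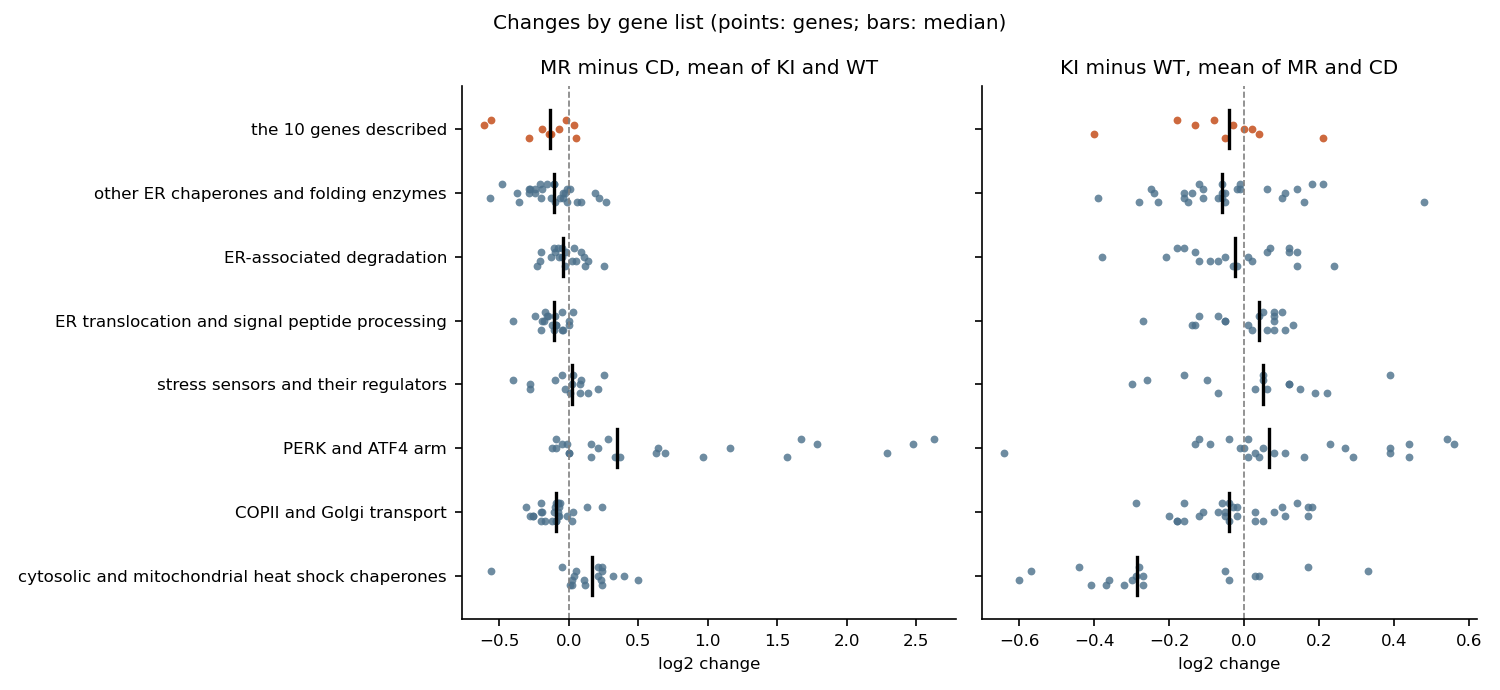
Log2 change (x axis) of the 10 genes described (red) and of 7 lists of related genes (blue), for the diet averaged over genotypes (left) and the genotype averaged over diets (right); points are genes and black bars medians. For the diet the 10 genes have a median of -0.13 and the PERK and ATF4 arm one of 0.35, and for the genotype the heat shock list has a median of -0.28.

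For the knock-in averaged over diets, the 7 lists held 6 genes that passed. The 10 genes had a median of -0.04, as all genes did. Among the other ER folding genes Creld1, a membrane relative of Creld2, fell (-0.24 ± 0.05, adjusted p = 0.0377), and among the sensors and regulators Nfyb rose (0.39 ± 0.08, adjusted p = 0.0334). NF-Y is the factor that binds the CCAAT part of an ERSE together with ATF6. Of 18 heat shock chaperones 4 fell (Hspa1a, Hsp90aa1, Dnaja1 and Hspd1, from -0.57 to -0.27), with a median of -0.28, where 2.81% of all genes passed in either direction. Each of these 6 calls ended without any 1 of 7 to 9 arrays, with adjusted p up to 0.101 and no change of sign. Median centring also ended those of Creld1, Hsp90aa1, Dnaja1 and Hspd1 (adjusted p from 0.0645 to 0.0967). The trend and robust prior ended those of Creld1 and Hspd1. The ER translocation, degradation, PERK and ATF4, and COPII lists had 0 calls, with medians of 0.04, -0.03, 0.07 and -0.04.

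Markers of other cells were read beside these values. The summed intensity of the 8 hepatocyte markers was 92222 to 93612 units in KI_MR, 94534 to 97472 in KI_CD, 81087 to 89597 in WT_MR and 89398 to 93340 in WT_CD, so that it was lower in KI_MR than in KI_CD without overlap, as the levels of Pdia6, Sdf2l1, Pdia4, Xbp1 and Dnajc3 were. In WT it was also lower on the restricted diet, with overlap. It was higher in KI_MR than in WT_MR without overlap, as Xbp1 was. In KI_CD it was also higher than in WT_CD without overlap, as Dnajc3 was. Taken singly, only Apob and Fgb were lower in KI_MR than in KI_CD without overlap, and Alb, Apoa1, Ttr, Serpina1c, Tat and Cps1 overlapped. Every single marker overlapped between KI_MR and WT_MR, and only Fgb and Tat were higher in KI_CD than in WT_CD without overlap. The part of the hepatocyte sum in those results was not tested. For plasma and B cells, which carry much of this chaperone set, 9 of 10 markers were measured and summed to 693 to 751 units in KI_MR, 685 to 931 in KI_CD, 753 to 1292 in WT_MR and 714 to 929 in WT_CD, with 3 of them (Jchain, Ms4a1 and Tnfrsf17) below the lower quartile of gene levels on all arrays. The ER degradation gene Derl3, part of that list, alone spanned 132 to 679 units. For pancreatic acinar cells 7 of 10 markers summed to 516 to 730 units in KI_MR, 517 to 685 in KI_CD, 493 to 634 in WT_MR and 545 to 648 in WT_CD. Here Ctrb1 had 312 units on KI_MR replicate 3 and 243 on KI_CD replicate 1, against 64 to 116 elsewhere. The cholangiocyte markers Krt19 (412 and 204 against 70 to 92) and Epcam (66 and 69 against 36 to 44) were highest there. No other marker of either list was highest on both arrays. Cholangiocyte markers (5 of 6) summed to 361 to 766 units in KI_MR and 351 to 568 in KI_CD. They had 352 to 383 in WT_MR and 367 to 419 in WT_CD. The part of these lists in the results was not tested. The Kupffer cell and macrophage markers (10 of 10) overlapped between diets in both genotypes, with 7357 to 8507 units in KI_MR, 6720 to 8650 in KI_CD, 6848 to 12381 in WT_MR and 8901 to 10777 in WT_CD. Their sum had the highest correlation of the 9 marker lists with the mean deviation of the 10 genes over the 12 arrays (r = 0.52, a description). Stellate cell markers summed to 6693 to 7555 units in KI_MR, 6129 to 8273 in KI_CD, 5297 to 5812 in WT_MR and 5996 to 6648 in WT_CD, lower in WT_MR than in WT_CD without overlap, as Pdia6 was, and higher in KI_MR than in WT_MR without overlap, as Xbp1 was. The largest part of that sum was Dcn, with 4289, 4241 and 4245 units in KI_MR and 3105, 2942 and 3321 in WT_MR. Between these groups Col3a1 was lower in KI_MR without overlap, and Reln, Lrat, Col1a1, Col1a2, Pdgfrb and Des overlapped. Des had 1113 units on KI_MR replicate 2 alone. In WT only Pdgfrb and Des were lower on the restricted diet without overlap, and the others, Dcn among them, overlapped. The part of these markers in those results was not tested either.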

How the data were processed

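The authors deposited linear array intensities, whole numbers between 10 and 20042 with like medians on every array. The sources used here do not give the authors' background correction, summary or scaling. Of 35512 probe sets 21789 carried a single gene symbol. Where a gene had several, its brightest probe set on average was used, which left 19938 genes. Groups were taken from the sample titles. The log2 of each intensity was fitted with limma 3.58.1 (R 4.3.3) as 4 group means over all 12 arrays, without a block, with 8 residual and 3.14 prior degrees of freedom. Tests were two-sided, and p-values were adjusted by Benjamini and Hochberg's method per contrast. With 3 arrays against 3, exact permutation allows no p smaller than 0.1 and was not used. The number of arrays limits the precision. The fit was tested on simulated data: of 200 genes changed by 0.5, 1 or 2 on the log2 scale in a simulated KI_CD against WT_CD comparison over 19938 genes, 38.5%, 91.5% and 99% were called. The simulated noise was normal and independent between genes, without effects shared by an array, so the shares can differ in the real data. The averaged contrasts were not simulated. Other steps ran in Python 3.11.15 with pandas 2.3.3.

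The 10 genes and the comparison lists were chosen with earlier results of these data known. Named genes are the 10, list genes past the threshold and otherwise up to 4 per list and contrast with the smallest p, and the 6 genes with the highest correlation with the mean of the 10, before and after group means are removed. Derl3, Ctrb1 and the single hepatocyte, cholangiocyte and stellate cell markers compared were named after their values were seen. So were Eif2ak3 and the genes of the PERK and ATF4 arm that did not pass in the averaged diet comparison, and these were not followed under the alternatives. Lists count the genes with a probe set of their own. Promoter sequences are from RefSeq (GRCm38.p6), and all 10 genes matched by symbol. The fitted changes of the named genes and the counts of calls were recomputed with quantile normalization, with arrays centred on their medians, without the dimmest 25% of genes, with all probe sets, with an intensity trend and robust prior, with a replicate block, with only the compared arrays (for the 4 contrasts of 2 groups), and with each array left out.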

Additional observations from a re-analysis of the deposited data

How the results depend on the processing

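Over 7 contrasts and the 10 genes, 1236 values under an alternative kept their direction and their side of the threshold, 60 changed sign, 3 lost and 1 gained a call. The diet effect on Pdia6 averaged over genotypes kept its call under quantile normalization, median centring, the filter on dim genes, all probe sets, the trend with robust prior and the replicate block (adjusted p from 0.0105 to 0.0284). It lost the call without KI_MR replicate 1, KI_MR replicate 3 or WT_CD replicate 1, with the values given above, and Xbp1 gained one without WT_CD replicate 2. The cause was not tested. For the list genes named, whose alternatives were chosen after seeing the data, 556 values kept their direction and side of the threshold, 112 lost and 8 gained a call and none changed sign. The gains were those of Pdia5, Ppib, Bak1 and Atf6 in the averaged diet effect. List medians, correlations, marker sums and motif counts were not recomputed.

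Counts of genes past the threshold moved more. For KI_CD against WT_CD the count was 16, and 31 without the dimmest 25% of genes, 26 with the trend and robust prior and 0 with only the compared arrays. For KI_MR against WT_MR it was 94, and 58 with median centring, 177 with the replicate block and 15 with only the compared arrays. For KI_MR against KI_CD it was 35, and 18 with median centring and 0 with only the compared arrays. For WT_MR against WT_CD it was 65, and 131 with only the compared arrays. For the genotype averaged over diets it was 561, and 960 with the replicate block. Same-numbered arrays did not deviate together in every pair (correlations from -0.055 to 0.244), and 11 of 12 correlations were above 0; the labels do not say whether the numbers pair animals, and the arrays were treated as unpaired. The replicate block changed no call of the 10 genes. The only-compared-arrays fits use fewer arrays.

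Leaving out each array in turn gave 2 to 32 genes for KI_CD against WT_CD, 3 to 226 for KI_MR against WT_MR, 7 to 94 for KI_MR against KI_CD, 17 to 199 for WT_MR against WT_CD, 0 to 3 for the interaction, 138 to 1945 for the averaged genotype effect and 112 to 470 for the averaged diet effect. The number of the 10 genes past the threshold was 0 to 2 for the averaged diet effect and 0 in every other contrast.

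Signs turned for 5 estimates under a change of scaling and for those listed after them when an array was left out. Under quantile normalization Pdia6 was at -0.01 in KI_CD against WT_CD and Dnajb9 at 0.03 in KI_MR against KI_CD. Under median centring these were 0.02 for Creld2 in KI_CD against WT_CD, 0.01 for Dnajb9 in KI_MR against KI_CD and 0.0029 for Creld2 in the averaged diet effect. With single arrays left out, KI_CD against WT_CD ranged from -0.12 to 0.13 for Pdia6, -0.26 to 0.02 for Herpud1 and -0.22 to 0.13 for Creld2. KI_MR against WT_MR ranged from -0.04 to 0.07 for Hspa5, -0.18 to 0.02 for Hsp90b1 and -0.09 to 0.25 for Herpud1. KI_MR against KI_CD ranged from -0.11 to 0.14 for Dnajb9 and -0.38 to 0.01 for Creld2. WT_MR against WT_CD ranged from -0.08 to 0.04 for Hspa5, -0.10 to 0.09 for Hsp90b1, -0.03 to 0.11 for Dnajc3, -0.25 to 0.10 for Herpud1 and -0.03 to 0.36 for Creld2. The interaction ranged from -0.06 to 0.21 for Xbp1. The averaged genotype effect ranged from -0.02 to 0.10 for Hsp90b1, -0.02 to 0.07 for Pdia4, -0.20 to 0.05 for Sdf2l1, -0.04 to 0.03 for Dnajc3 and -0.11 to 0.08 for Herpud1. The averaged diet effect ranged from -0.0028 to 0.13 for Hspa5, -0.07 to 0.10 for Herpud1 and -0.11 to 0.09 for Creld2.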

Other observations

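Within each genotype the wider pathway lists gave these values for the restricted diet. In KI_MR against KI_CD the PERK and ATF4 arm had 3 rises and 0 falls past the threshold among 24 genes, with Aldh1l2, a mitochondrial folate enzyme gene, at 1.59 (adjusted p = 0.00471), the cystine transporter gene Slc7a11 at 2.46 (0.0317) and the lipoprotein receptor gene Vldlr at 1.68 (0.0473). In WT_MR against WT_CD Aldh1l2, Slc7a11 and Vldlr passed too, at 1.54 (adjusted p = 0.00326), 2.81 (0.00935) and 1.90 (0.0173). The Aldh1l2 calls held without any 1 array, while Slc7a11 and Vldlr lost theirs without any 1 of 8 and 11 arrays in KI and 2 and 5 arrays in WT, and none of the 3 passed in KI with only the 6 compared arrays. The KI call of Slc7a11 also ended with the trend and robust prior (adjusted p = 0.0671) and the replicate block (0.0515). That of Vldlr ended with median centring (0.0552) and all probe sets (0.0502). Of 19 alternatives 8 kept the KI call of Slc7a11 and 5 that of Vldlr. The 29 other ER folding genes had 24 below 0 in KI_MR against KI_CD (median -0.18) and 19 below 0 in WT_MR against WT_CD (median -0.10), and 0 passed in either by limma. Pdia5 was at -0.79 ± 0.15 in KI (adjusted p = 0.0852) and at -0.18 ± 0.15 in WT (0.918), with a difference between the genotypes of -0.61 ± 0.21 (1.0). The calreticulin gene Calr was at -0.30 in KI (0.288) and at -0.10 in WT (0.920). Of 19 translocation genes 18 were below 0 in KI_MR against KI_CD (median -0.18) and 14 in WT_MR against WT_CD (median -0.06), and 0 passed in either. The lists were not tested as sets, and the difference between the genotypes in diet response passed for 0 of 19938 genes by limma, with 824 at an unadjusted p under 0.05.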
